A study of Saccharomyces cerevisiae with 32 samples.

Results

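Helix alpha2 of the third PDZ domain of PSD95 (PDZ3) was described through the growth scores of 25121 variants that carried exactly 1 substitution at residues 71 to 79 of the listed PDZ3 sequence. These were all 171 possible single substitutions and 24950 of 25992 possible pairs (96.0%) with 1 further substitution in the peptide ligand from the protein CRIPT. Members were chosen by position alone, from 251627 sequences of the PDZ3-CRIPT table and 470640 sequences of the series. Position 71 corresponds to PSD95 residue 373 and position 79 to residue 381. Residue H70, which begins the helix, was set apart from the 9 positions and is given where it serves for comparison.

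The series measured binding of PDZ3 and CRIPT variants in yeast of the laboratory strain BY4741. Per the labels, yeast carrying the plasmid libraries were sampled before the drug (input) and after about 5 generations of growth in methotrexate at 200 µg/mL (output). The input samples were also listed with 5 generations of growth, without methotrexate. Each of 2 blocks of this library had 3 biological replicates. All variants shared the same strain and the same drug dose, and the comparison for each was with the wild-type PDZ3-CRIPT sequence of the same table. The authors deposited 1 score for each amino acid sequence with 1 error, which pools the replicates, so the spread between replicates could not be given, the depth behind each value is unknown, and ± stands below for the authors' error. A lower score stands for slower growth in methotrexate. The log base, any scaling by generations and the kind of error were not given in the sources used here.

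PDZ domains bind the free C-terminus of a partner protein in a groove between helix alpha2 and the strand beta2. The ligand adds itself to the sheet as a further strand, its last side chain enters a hydrophobic pocket, and the residue at ligand position -2 meets the start of helix alpha2. In class I domains such as PDZ3 that meeting is a contact of the histidine at the start of the helix with a serine or threonine of the ligand. In this assay fragments of a drug-resistant dihydrofolate reductase restore growth when the fused partners bind, which is background that the labels do not state in full.

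The wild-type sequences of the helix and the ligand, and the substituted sequences on which the results below turn, are shown so that each change can be placed. The helix lines run from residue 71 to residue 79, except the first, which adds H70 and A80, and the CRIPT lines run from position 1 to position 8, the free C-terminus.
Wild-type helix with H70 and A80: HEQAAIALKNA
Wild-type helix: EQAAIALKN
A73S: EQSAIALKN
A73R: EQRAIALKN
A74V: EQAVIALKN
L77F: EQAAIAFKN
L77G: EQAAIAGKN
Wild-type CRIPT: KNYKQTSV
T6S: KNYKQSSV
V8L: KNYKQTSL
In ligand numbering V8 is position 0, S7 is position -1, T6 is position -2 and K4 is position -4.

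The wild-type sequence scored -0.000512 ± 0.00383. Variants with a stop codon had a median of -0.799 over 5301 sequences, called the stop level below. The errors of the 171 helix single substitutions ran from 0.00885 to 0.0542 with a median of 0.0128, and the median error of the helix pairs was 0.0437.

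Single substitutions in the helix gave growth on both sides of wild type. Of 171, 84 scored lower than wild type (49.1%), against 37.6% of the 947 single substitutions at PDZ3 residues 51 to 100. Another 45 scored higher (26.3%), against 21.8% of the 947, and 42 passed the threshold in neither direction. The test was the score minus the wild-type score over the combined error, as a two-sided normal p adjusted by Benjamini-Hochberg over all 142250 variants of that listing, with a threshold of 0.05. All these differences share the error of 1 wild-type value, and the p-values rest on the authors' errors alone, so scores are given below with their errors and a variant is called lower or higher only where it passed. With the threshold at 0.01, 82 remained lower and 31 higher.

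The lowest scores lay on 1 side of the helix. On a wheel of 100 degrees per residue counted from H70, A73, A74, L77 and K78 fall within 90 degrees of H70, and E71, Q72, I75, A76 and N79 fall beyond it. On the H70 side 59 of 76 substitutions scored lower than wild type and 6 higher, and on the far side 25 of 95 scored lower and 39 higher. The mean difference from wild type was -0.288 on the H70 side (SD 0.293 over 76 substitutions) and -0.00340 on the far side (SD 0.0694 over 95). The sides differed by -0.285 ± 0.00262, where the error propagates the authors' errors and leaves out the spread between substitutions. With substitutions weighted by their inverse squared error, the difference was -0.166. Positions within a side were not alike. On the far side E71, at 100 degrees, had 18 of its 19 substitutions lower, and on the H70 side K78, at 80 degrees, had 9 lower, 2 higher and 8 neither.

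Among the 50 positions from 51 to 100, ranked from the lowest mean difference, A73 was 3rd at -0.458, L77 was 5th at -0.363 and A74 was 6th at -0.287. H70, the conserved histidine of the groove, was 2nd at -0.521, with 19 of 19 substitutions lower than wild type. E71 was 14th at -0.0993 and K78 was 20th at -0.0441. The means of N79 at 0.00460, A76 at 0.0163, Q72 at 0.0259 and I75 at 0.0355 were above that of wild type, with ranks 34, 42, 46 and 48, but N79 was below it at -0.00476 as a median over substitutions, -0.00616 with inverse squared error weights and -0.00503 over near-neutral ligands, which are defined below. With those weights A73 was at -0.268, A74 at -0.244 and L77 at -0.193, so the order of L77 and A74 was reversed. The errors of these means were between 0.00475 and 0.00700 and include that of the wild-type value, which all positions share. Differences between positions close in this order, such as Q72 and I75, were not tested. Of the 171 substitutions, 23 scored below 50% of the stop level, and all 23 were at A73 (10), A74 (4) or L77 (9). The residues that follow the helix, 80 to 82, had 7 lower and 17 higher of 57.

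A73 (PSD95 A375) was the lowest position of the helix, with 18 of 19 substitutions lower than wild type. Small residues and methionine were nearest to wild type there. A73S scored -0.0108 ± 0.0179 and did not pass the threshold. A73G scored -0.0563 ± 0.0132, A73C -0.101 ± 0.0120, A73V -0.108 ± 0.0128, A73M -0.133 ± 0.0102 and A73T -0.136 ± 0.0125. Histidine and most of the longer aliphatic and amide side chains were intermediate, with A73H at -0.294 ± 0.0183, A73I at -0.256 ± 0.0120, A73N at -0.381 ± 0.0167, A73Q at -0.424 ± 0.0132 and A73L at -0.492 ± 0.0163. Aromatic and acidic residues, arginine, lysine and proline lay between -0.867 and -0.684, toward the stop level. A73R was the lowest at -0.867 ± 0.0338, A73P scored -0.855 ± 0.0377 and A73W -0.788 ± 0.0278. The correlation of score with side chain volume over the 19 substitutions was -0.57, a description over variants that share 1 position and 1 wild-type value.

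A74 (PSD95 A376) faces the ligand groove in PDZ structures, next to the residue at ligand position -2. Of its 19 substitutions 18 scored lower than wild type and 1 higher. The exception was A74V at 0.0465 ± 0.0112. The next highest were A74Y at -0.116 ± 0.0128, A74G at -0.136 ± 0.0122, A74F at -0.156 ± 0.0129 and A74C at -0.166 ± 0.0137. Other aromatic and small residues were lower, with A74W at -0.325 ± 0.0161 and A74S at -0.306 ± 0.0139. A74I, which differs from valine by 1 methylene group, scored -0.188 ± 0.0121, and A74T, of the same branched shape as valine but with a hydroxyl group, scored -0.305 ± 0.0164. The lowest were A74D at -0.529 ± 0.0218, A74N at -0.479 ± 0.0204, A74M at -0.477 ± 0.0198 and A74Q at -0.468 ± 0.0181, and these 4 scored below each of the 3 aromatic residues. Volume had no linear relation to the scores here (correlation 0.00967 over 19 substitutions), unlike the value at A73. None of the A74 substitutions reached the stop level, and A74P at -0.264 ± 0.0176 lay in the middle of the range.

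L77 (PSD95 L379) lines the hydrophobic pocket that takes the last side chain of the ligand. It had the widest range of the 9 positions, from L77R at -0.869 ± 0.0290 to L77F at 0.0839 ± 0.0127. The hydrophobic residues L77C, L77I, L77M and L77A had scores between -0.0238 and 0.0279, with L77A lower than wild type, and L77V scored -0.0786 ± 0.0105. L77F, L77H at 0.0645 ± 0.0142 and L77C at 0.0279 ± 0.0104 scored higher than wild type. The other aromatic residues did not follow L77F, as L77Y scored -0.307 ± 0.0122 and L77W -0.678 ± 0.0202. The hydroxyl residues L77T at -0.142 ± 0.00964 and L77S at -0.200 ± 0.0102 scored below L77A, and L77G scored -0.459 ± 0.0130. The charged residues L77R, L77E, L77K and L77D and the proline L77P scored between -0.869 and -0.798, about the stop level. The correlation with Kyte-Doolittle hydropathy was 0.754 over the 19 substitutions.

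E71 (PSD95 E373) follows the histidine and lies just beyond the 90 degrees on the wheel used here. Its substitutions formed a narrow band below wild type: leaving out proline and aspartate, the other 17 scored between -0.159 and -0.0558. E71D, which keeps the acidic group, was the exception at 0.0180 ± 0.0177 and passed in neither direction. E71Q, which keeps the shape of the side chain but not its charge, scored -0.0872 ± 0.0116. E71R at -0.149 ± 0.0116 and E71K at -0.143 ± 0.0112 were low in the band, E71H at -0.0558 ± 0.0180 was the highest in it, and E71P was the lowest at -0.256 ± 0.0120. E71A scored -0.0840 ± 0.0204, inside the same band.

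K78 (PSD95 K380) showed its lowest scores for acidic residues. K78D scored -0.226 ± 0.0212 and K78E -0.204 ± 0.0148, and the acidic mean minus the mean of the other 17 substitutions was -0.191 ± 0.0134. K78P scored -0.131 ± 0.00936, K78A -0.126 ± 0.0126 and K78S -0.109 ± 0.0106. K78R at 0.0115 ± 0.0110 and K78L at -0.00627 ± 0.0116 passed in neither direction. K78W at 0.0379 ± 0.0117 and K78I at 0.0317 ± 0.0137, both uncharged, scored higher than wild type. K78M had the highest listed score there, 0.0444 ± 0.0219, and did not pass. Over the near-neutral ligands described below, K78W was the highest of this position.

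The remaining positions of the far side carried most of the scores above wild type. I75 (PSD95 I377) had 13 of 19 substitutions higher than wild type, Q72 (PSD95 Q374) had 10, A76 (PSD95 A378) had 9 and N79 (PSD95 N381) had 7. The highest at I75, a hydrophobic residue in wild type, were aspartate at 0.146 ± 0.0159, tyrosine at 0.0859 ± 0.0174 and histidine at 0.0842 ± 0.0178. I75R scored 0.000250 ± 0.0182, and I75P at -0.182 ± 0.0104 was the single substitution of this position below wild type. At A76, 18 substitutions lay between -0.0224 and 0.0457, with A76Q the highest at 0.0457 ± 0.0105, and A76P was the exception at -0.145 ± 0.0175.

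Q72 had no substitution that scored lower than wild type, the lowest being Q72L at -0.0219 ± 0.0107. Q72G was the highest at 0.0671 ± 0.0105, followed by Q72T at 0.0649 ± 0.0143 and Q72M at 0.0518 ± 0.0137. N79 lies at the end of the helix and was mixed, with 5 lower and 7 higher. N79G was the highest at 0.110 ± 0.0121, followed by N79H at 0.0753 ± 0.0165 and N79T at 0.0657 ± 0.0149. N79S was the lowest at -0.104 ± 0.0104, below N79P at -0.0953 ± 0.0108, so serine and threonine lay on opposite sides of wild type at this position.

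The same new residue gave different scores along the helix. Proline, which lacks the amide hydrogen that a helix uses, had a mean difference from wild type of -0.300 over the 9 positions, against -0.121 for the other 162 substitutions, a difference of -0.179 ± 0.00640 that was -0.0939 with inverse squared error weights. It scored lower than wild type at 8 positions. Proline was the lowest substitution at E71, I75 and A76, all on the far side, where the other substitutions scored near wild type or in a narrow band. Q72P, in the first turn, was the exception at 0.0500 ± 0.0102, higher than wild type. The proline mean was -0.517 on the H70 side (4 positions) and -0.125 on the far side (5 positions).

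Glycine, which is flexible and also disfavours helix, scored lower than wild type at 5 positions and higher at 3. The lowest was L77G, and Q72G and N79G were the highest substitutions of their positions. I75G scored 0.0472 ± 0.0135 and A76G 0.0105 ± 0.0102, which did not pass. Acidic residues divided the sides most: their mean was -0.532 on the H70 side, with 8 of 8 lower than wild type, and 0.0373 on the far side, with 0 of 9 lower and 4 higher. Aliphatic residues had the highest mean of the 7 classes of new residue on the H70 side, at -0.114 over 21 substitutions.

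Leucine and lysine show how far neighbours differed for the same side chain. A73L scored -0.492, A74L -0.357 ± 0.0162, E71L -0.0960 ± 0.0132, N79L -0.0192 ± 0.0114, I75L 0.0294 ± 0.0194 and A76L 0.0375 ± 0.0107. A73K at -0.865 ± 0.0313 and L77K at -0.800 ± 0.0267 were near the stop level, whereas A74K scored -0.377 ± 0.0134, I75K 0.0543 ± 0.0187 and A76K 0.0299 ± 0.0107. Glutamate at A73 scored -0.703 ± 0.0347 and at L77 -0.851 ± 0.0285, and at Q72 and N79 it scored 0.0254 ± 0.0106 and 0.0389 ± 0.0135, both higher than wild type. Alanine, where it is a substitution, scored -0.126 at K78, -0.0840 at E71 and -0.0238 at L77, which were lower than wild type, and 0.00701 ± 0.0107 at Q72, 0.0208 ± 0.00985 at I75 and -0.00527 ± 0.0107 at N79, which passed in neither direction. Tryptophan scored -0.788 at A73 and -0.325 ± 0.0161 at A74, against 0.0225 ± 0.00951 at I75 and 0.0226 ± 0.0106 at A76.

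The single scores were set beside the same helix substitutions in 13 near-neutral ligands, CRIPT single variants within 0.02 of wild type, with 11 to 13 of them measured for each substitution. In each such ligand the pair's score minus that of the ligand variant alone gives the effect of the helix substitution, and the median was taken. The listed effect and this median had a correlation of 0.992 over 171 substitutions, which share the wild type and the listing. They differed by more than 0.05 at 20 substitutions. I75D, the highest helix single, had a median of 0.0419 over the near-neutral ligands, against a listed 0.146. Q72T had -0.0103 against 0.0649, so its direction was not kept. L77F had 0.0210 against 0.0839 and N79H 0.0101 against 0.0753, whereas N79G kept 0.0782 and Q72G 0.0769. K78W moved the other way and had the highest median of the 171, 0.0963 against a listed 0.0379. K78M had 0.0179 against 0.0444. E71H had -0.110 against -0.0558, below E71N with a median of -0.0361. Q72M had 0.00195 against 0.0518, below Q72D and Q72W with medians of 0.0733 and 0.0705. At the low end A73R had -0.735 against -0.867, A73K -0.726 against -0.865 and A73P -0.687 against -0.855.

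Pairs of a helix and a CRIPT substitution scored lower than wild type in 19565 of 24950 cases (78.4%), against 74.2% of the 135850 pairs of PDZ3 residues 51 to 100. They scored higher in 493 cases (1.98%), against 1.92% of all pairs, a share near the background. The 493 were mostly at I75 (112), Q72 (106), A76 (103) and N79 (73), and A73 had 3. The share of pairs lower than wild type ran from 61.9% at I75 to 96.5% at A74, with A73 at 96.0% and E71 at 92.0%.

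The level of a pair followed the ligand position. The mean pair score was -0.205 with substitutions at K1, -0.125 at N2, -0.232 at Y3, -0.406 at K4, -0.315 at Q5, -0.721 at T6, -0.320 at S7 and -0.670 at V8. With N2 the pairs of the H70 side averaged -0.273 and those of the far side -0.00709. With T6, the residue that meets H70, the averages were -0.767 and -0.691, both near the stop level, and with V8 they were -0.719 and -0.637. The order of the sides was thus the same with each of the 8 ligand positions, and the gap was narrowest where the ligand substitution alone was near the stop level. Fewer pairs were listed with T6 and V8, and no helix pair carried T6A. A73 had 252 pairs with T6 and 270 with V8, against 361 with N2. A74 had 264 with T6 and 265 with V8.

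Each pair was next compared with the score that the listing gives to pairs with the same sum of single effects, read from a monotone curve through all 135850 pairs. The error of a deviation from that expected score combines those of the pair, its 2 singles and wild type, and the same test was applied with adjustment over all pairs. Of the helix pairs 158 lay above the curve (0.633%), against 0.666% of all pairs, and 38 lay below it (0.152%), against 0.149%. Both shares are near the background. Against a plain sum of single effects, with no curve, 1321 helix pairs lay above and 228 below. Of the 158, 112 had the ligand substitution at S7, and 90 of these were S7N. These were 3.47% of the helix pairs at S7, against 3.92% of all pairs at S7, which is again near the background.

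Of the 158 pairs above the curve, 47 did not involve S7N, S7D or S7T (0.192% of such helix pairs, against 0.165% of such pairs in the listing), and S7T held 27 of the 38 below. The listed scores of these ligand variants stood away from their median effects in near-neutral PDZ3 backgrounds, taken in the same way as for the helix. S7N was listed at -0.493 ± 0.00636, against a median of -0.286 over 290 backgrounds. S7D was listed at -0.603 ± 0.00569 against -0.458, and S7T at 0.0478 ± 0.00518 against -0.0682. By deviation over error the farthest of these pairs above were L77H with S7N at -0.185 ± 0.0294, against an expected -0.443, and A76F with S7N at -0.149 ± 0.0381, against -0.448. By the same measure the farthest below was L77A with S7T at -0.131 ± 0.0253, against an expected 0.00369. With the median deviation of each helix and each ligand substitution removed, 24 helix pairs lay above the curve (0.0962%), against 0.0788% of all pairs, none of them at S7. In that setting 0 lay below, with 207 at an unadjusted p under 0.05.

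After that step 13 of the 24 pairs were with V8 and 6 with T6, and 9 of the 24 joined L77 with V8, the pocket residue of the helix and the side chain that enters the pocket. Without that step L77 with V8 also had 9 of 295 pairs above it (3.05%) and 0 below, against 0.248% of all pairs with V8 above it. The sets of 9 were not the same: L77E with V8I passed only with medians removed, and L77A with V8H only without. Over all 295 pairs the mean deviation was -0.00902, or 0.00878 with medians removed, so the position pair as a whole lay near the curve. L77G with V8L was the farthest above of all helix pairs by deviation over error. It scored -0.314 ± 0.0345, against an expected -0.668, a deviation of 0.354 ± 0.0374. L77G alone scored -0.459 and V8L alone -0.240 ± 0.00461, so the pair grew better than the glycine variant with the wild-type ligand (difference 0.145 ± 0.0369).

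The same glycine variant scored -0.480 ± 0.0444 with V8M, against an expected -0.800, and -0.443 ± 0.0413 with V8I, against -0.626. V8M alone scored -0.518 and V8I alone -0.192. Leucine, methionine and isoleucine are all larger than the valine of wild-type CRIPT. L77G with V8C went the other way, at -0.630 ± 0.0496 against an expected -0.538, and did not pass, although V8C alone scored -0.0939.

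V8L lay above the curve with other short side chains at L77 as well. L77V with V8L scored -0.130 ± 0.0346, against an expected -0.329. L77S with V8L scored -0.279 ± 0.0334 against -0.444, and L77T with V8L scored -0.246 ± 0.0324 against -0.394. L77A with V8L scored -0.173 ± 0.0283 against -0.279 and did not pass. Over alanine, cysteine, glycine, serine, threonine and valine at L77 the mean deviation with V8L was 0.173 (6 pairs, from 0.0670 to 0.354), a grouping made after the values were seen.

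Pairs of V8L with larger residues at L77 did not pass. L77F with V8L scored -0.164 ± 0.0313, against an expected -0.163, and L77M with V8L scored -0.222 ± 0.0351 against -0.259. L77Y with V8L scored -0.561 ± 0.0601 against -0.538. With the bulkier ligand V8F, whose single score was -0.701, the pairs past the threshold were L77V at -0.468 ± 0.0558, against an expected -0.727, and L77I at -0.434 ± 0.0495, against -0.654. Over the same 6 short residues the mean deviation with V8F was -0.0427 (from -0.187 to 0.259), so the mean shift seen with V8L was not seen with V8F. L77A with V8H completed the 9 found without medians removed, at -0.551 ± 0.0663 against -0.800. The listed V8H of -1.25 lay far below its median of -0.729 in near-neutral backgrounds. With the expectation taken as a product of growth above the stop level, 6 of the 9 passed, and L77G with V8I, L77S with V8L and L77T with V8L did not.

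A74 with T6, the other contact known from PDZ structures, had 7 of 264 pairs above the curve (2.65%) and 0 below, against 0.809% of all pairs with T6 above it. The closest ligand change, T6S, which keeps the hydroxyl group and scored -0.156 alone, gave 3 of the 7. A74Y with T6S scored -0.101 ± 0.0370, against an expected -0.286. A74R with T6S scored -0.281 ± 0.0396 against -0.482, and A74F with T6S scored -0.145 ± 0.0461 against -0.317. The helix substitutions alone scored -0.116 for A74Y, -0.336 for A74R and -0.156 for A74F, so these pairs scored no lower than their helix single. The deviation with T6S was positive for 16 of 19 A74 substitutions, with A74G, A74E and A74H as the exceptions. These 19 pairs share 1 T6S single, and the count was not set against other helix positions. Whether it is particular to A74 was not tested. A74V with T6S was on the curve at -0.108 ± 0.0374 against -0.119. The other 4 were A74F with T6Y at -0.455 ± 0.0635 against -0.774, A74Y with T6H, A74G with T6Q and A74C with T6D. The listed T6Q of -1.22 lay far below its near-neutral median of -0.747. With medians removed 4 of the A74 pairs with T6 passed: A74Y with T6S, A74R with T6S, A74F with T6Y and A74P with T6Y. A74P with T6Y was not among the 7. A74F with T6S and the pairs with T6H, T6Q and T6D did not pass in that setting. Among variants whose error was in the lower 50%, 2 passed.

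K78 with V8 had 4 of 316 pairs above the curve (1.27%), against the same 0.248%, each with an error of 0.0634 or more. K78A with V8A scored -0.234 ± 0.0846 against an expected -0.734, and K78F with V8E scored -0.365 ± 0.0634 against -0.803. K78D with V8H, the ligand variant described above, scored -0.367 ± 0.0936 against -0.875. K78F with V8R scored -0.477 ± 0.0865 against -0.800, and the listed V8R of -1.03 lay below its near-neutral median of -0.763. The listed single of V8E, -1.31, lay below the stop level and below its near-neutral median of -0.770, and no other helix pair with V8E lay above the curve.

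The pairs of E71 with K4 were shifted above the curve by a small amount. The 360 pairs had a mean deviation of 0.0289, and 260 of them were positive (72.2%), against 42.2% to 50.3% with the other 7 ligand positions. The sign of that mean depended on the expectation: with a product above the stop level it was -0.00942. Of the 360, 2 passed the threshold (0.556%, against 0.0400% of all pairs with K4 above the curve). They were E71K with K4G at -0.416 ± 0.0495 against an expected -0.622 and E71Q with K4E at -0.273 ± 0.0416 against -0.432. With medians removed 1 passed, E71K with K4G, and against the product 0 passed above the expectation.

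Exchanges of charge between helix and ligand did not pass the threshold. E71K with K4E scored -0.338 ± 0.0438, against an expected -0.467, and E71R with K4E scored -0.455 ± 0.0496 against -0.477. E71K with K4D scored -0.522 ± 0.0528 against -0.617, and E71R with K4D scored -0.533 ± 0.0549 against -0.617. E71K with K1D scored -0.386 ± 0.0470 against -0.316, on the other side of the curve. The other exchanges with K1 lay above it. E71R with K1D scored -0.292 ± 0.0607 against -0.321. E71K with K1E scored -0.278 ± 0.0411 against -0.306, and E71R with K1E -0.270 ± 0.0407 against -0.316. The mean deviation of the acidic K4 substitutions was 0.0513 with basic residues at E71 (6 pairs, histidine included) and 0.0311 with uncharged ones (30 pairs).

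Among the pairs below the curve outside S7, most carried a helix single whose listed score stood above its near-neutral median. I75D gave 7 of these pairs, such as I75D with K4M at -0.192 ± 0.0300 against an expected -0.0376. Q72T gave 2. N79Y with N2L scored -0.133 ± 0.0332 against -0.00252. With medians removed none of these passed.

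A last comparison asked whether a ligand substitution that lowers the score alone could raise a helix variant above its own single score. This test was added after the pair deviations had been seen. It found 32 helix pairs (0.128%), against 0.0927% of all pairs, all of them at A73 or L77. In 24 of the 32 the helix single was listed below the stop level. Measured from the near-neutral median of the helix substitution in place of its listed score, 10 of the 32 lay higher by more than 2 errors of the pair. Of the 32, 3 were also above the curve: L77G with V8L, A73E with Q5S at -0.498 ± 0.0450 against a helix single of -0.703, and A73R with Q5P at -0.513 ± 0.0655 against -0.867. At an adjusted p under 0.01, 8 of the 32 passed, L77G with V8L among them.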

How the data were processed

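Libraries of PDZ3 and CRIPT variants were sequenced before and after growth in methotrexate. Per the submitters' processing notes, cutadapt and FastQC were used. The authors deposited 1 fitness score and 1 error per amino acid sequence, pooled over 3 replicates, and how the score was computed is not given in the sources used here. The table holds 2 listings with no block label. The listing for PDZ3 residues 51 to 100 (142251 sequences, wild type included) was used whole, and all p-values were adjusted over it. The pair curve was isotonic (scikit-learn 1.9.0, scipy 1.17.1, pandas 2.3.3, Python 3.11.15). E94, Y95 and S96, outside the helix, had 18 of 19 single substitutions listed. The 1 missing single substitution that had pairs was replaced by a median over its pairs. Adjusted p-values were used as thresholds. Normal p-values rest on the authors' errors and include no check between replicates. The tests against wild type and against the curve were tested on simulated data. Named substitutions were the lowest, highest, proline, glycine and higher-scoring ones of each position, the same residue at several positions, and the pairs farthest from the curve or at known contacts. Others were chosen after their values were seen. Members, sides and lists were chosen with earlier results of these data known.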

Additional observations from a re-analysis of the deposited data

How the results depend on the processing

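No paired analysis was possible because the table holds 1 score per sequence with the replicates pooled, which also prevented leaving out a replicate. The number of singles lower than wild type stayed between 81 and 84, and the number higher between 31 and 47, over the alternatives run. The difference between the H70 side and the far side kept its sign and was -0.223 with medians over substitutions, -0.166 with inverse squared error weights, -0.278 over the 50% of variants with the lower errors, -0.269 over near-neutral ligands, -0.279 without proline and -0.359 with a wheel limit of 60 degrees. The difference between proline and the other substitutions was -0.164 with medians, -0.0939 with those weights and -0.166 over near-neutral ligands. Among position means, N79 turned to -0.00476 with medians, -0.00616 with the weights and -0.00503 over near-neutral ligands, so that 6 positions in place of 5 were below wild type. With the weights A73 was -0.268, L77 -0.193 and I75 0.0233, and with medians K78 was -0.0188 and A76 0.0265. Q72T turned to -0.0103 over near-neutral ligands, and the mean deviation of E71 with K4 turned to -0.00942 under the product. Pairs above the curve numbered 1321 against a plain sum, 24 with medians removed, 89 over the lower errors and 24 with p adjusted anew without S7D, S7N and S7T, a choice made after seeing the data. Pairs below it numbered 228 against the sum, 142 against the product, 0 with medians removed, 11 at an adjusted p under 0.01, 7 with an added error of 0.0118 estimated from 151 CRIPT variants in both listings, and 2 without those 3 ligand variants. At S7 the pairs above numbered 201 against the sum, 0 with medians removed, 73 over the lower errors and 0 without the 3 variants. L77 with V8 had 100 against the sum and 6 to 9 otherwise. A74 with T6 had 68 against the sum, 4 with medians removed and 2 over the lower errors. Pairs above their own helix single numbered 8 at 0.01. The causes were not tested.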
